A study of Rattus norvegicus with 6 samples.

Results

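Aptardi 3′ ends that lie downstream of the 3′ end of the transcript they were made from are described here. A member is a transcript that aptardi added to the assembled rat transcriptome and whose 3′ end is 1 or more bases further along the transcript than that of its original transcript, called its parent below. This rule uses only positions in the annotation and no expression value, and it gave 4095 of 11559 aptardi transcripts (35.43%), in an annotation of 64526 transcripts. The other 7464 aptardi transcripts end upstream of their parent.

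The RNA came from whole brain of naïve male rats of a pair of inbred strains, 3 animals of BN-Lx/CubPrin (a congenic Brown Norway strain, BNLx below) and 3 of SHR/OlaIpcvPrin (the spontaneously hypertensive rat, SHR below), with no treatment in either group. Each library holds the polyA RNA of 1 animal and was sequenced as paired reads of 100 bases. The transcriptome and the aptardi ends were made once from the merged reads of both strains, so every end was offered to every library. Age is not stated in the labels, and with 1 inbred strain per group a difference holds for these strains as they were bred and kept.

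A messenger RNA ends where its precursor is cut and given a polyA tail. Many genes have several such sites in their last exon, and use of a downstream site lengthens the 3′ untranslated region, which carries binding sites for microRNAs and RNA-binding proteins, without changing the protein. Brain tissue is known for long 3′ untranslated regions. Aptardi looks for such sites in short-read coverage and genomic sequence, and it places an end on a grid of 100 bases along the last exon and the sequence beyond it. The annotation used here lists exons without coding regions, so an extension is called exonic sequence beyond the parent's end below, and whether it is untranslated was not read from the files.

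Total expected counts ranged from 11747048 to 32826625 in BNLx and from 21745968 to 41333079 in SHR. A pair of libraries stood apart. Across 32348 isoforms past the filter (50 or more counts in 2 of 3 libraries of a strain), log2(CPM + 1) of BNLx replicates 1 and 2 correlated at 0.922 and of SHR replicates 2 and 3 at 0.933, whereas BNLx replicate 3 reached only 0.829 with replicate 1 of its strain and 0.791 with replicate 2. SHR replicate 1 had 0.834 and 0.843 with the other SHR libraries and 0.881 with BNLx replicate 1, which is of the other strain. CPM here is the count scaled for the size of the library, and TPM is scaled for transcript length as well. The neuronal markers Snap25, Syt1 and Map2 summed to 2900 to 4730 TPM in BNLx and 2010 to 3760 in SHR, with the lowest sum of each strain in BNLx replicate 3 and SHR replicate 1. Snap25 made up most of this sum and had a log2 fold change of -0.679. Syt1 (0.203) and Map2 (0.428) went the other way, and Map2 was lowest within BNLx in replicate 1. The oligodendrocyte marker Mog was at 183 to 347 TPM in BNLx and 95.0 to 196 in SHR. Markers of astrocytes (3 of 5 found by name) summed to 2230 to 2380 and 2020 to 2690 TPM, and those of microglia (3 of 5) to 86.8 to 101 and 97.8 to 122. The astrocyte sum joins opposite directions, with log2 fold changes of -0.614 for S100b, 0.487 for Slc1a2 and 0.415 for Slc1a3. None of these markers was at 0 in any library or passed the gene test. Markers of endothelium, choroid plexus, blood, pituitary and liver are under no name in the annotation used here. In whole tissue, fewer cells of a type and less RNA per cell cannot be told apart.

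The 4095 members share 2719 distinct 3′ ends, come from 3470 parents and lie in 2084 loci. All 4095 have the introns of their parent. The extension ran from 101 to 9654 bases, with a median of 682 and quartiles of 167 and 1820.5. It was at most 200 bases for 1149 members and over 1000 bases for 1701 (41.54%). The last exon had a median of 683 bases in the parents and 1800 in the members. Most parents, 2982 of 3470, have 1 longer end, and the most for a parent was 7. The end of 1288 members (31.45%) lay within 100 bases of the end of another original transcript of the same locus. The extension of 559 members (13.65%) overlapped an exon of another locus on the opposite strand. The libraries do not mark strand, so reads of such a stretch cannot be assigned to either gene.

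Longer ends were unevenly spread over the chromosomes. On chromosomes 2 to 9, 3476 of 6922 aptardi ends were longer (50.2%), with a median extension of 948 bases. On chromosomes 1 and 10 to 16, 619 of 4637 were longer (13.3%), with a median of 120 bases, and 57 of the 619 (9.21%) went beyond 200 bases. Single chromosomes did not overlap between these sets, at 45.8 to 54.6% against 11.4 to 15.7%. Chromosomes 17 to 20, X and Y hold 8278 original transcripts and no aptardi end. The split follows another property of the annotation. Of the original transcripts, 36.4% are reference transcripts on chromosomes 2 to 9 and 0 of 18365 on chromosomes 1 and 10 to 16, where the assembled parents already had long last exons (median 1347 bases). The 2327 members of a reference parent had a median extension of 1320 bases from a median last exon of 411, and the 1149 members of an assembled parent on chromosomes 2 to 9 had 383 from 878. The part of the reference annotation in this split was not tested. Gene symbols come from reference transcripts, so the 3108 members with a symbol (1703 symbols) are all on chromosomes 2 to 9.

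**Figure D1:**
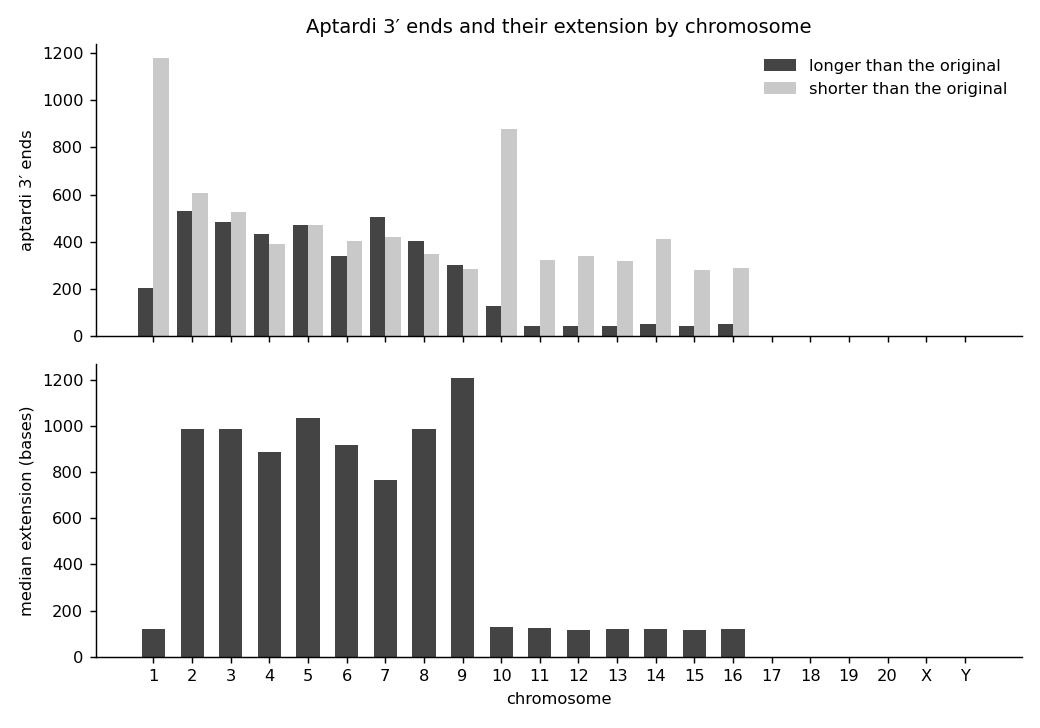
Top, number of aptardi 3′ ends longer (dark) and shorter (light) than the original transcript on each rat chromosome; bottom, median extension of the longer ends in bases. Chromosomes 2 to 9 have medians of 765.5 to 1206 bases, chromosomes 1 and 10 to 16 have 116 to 128, and the others have no aptardi end.

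All 4095 members were quantified, and together they held 8.19 to 9.35% of the counts of a library. In every library at 0 were 418 members, while 1025 had a parent at 0 in every library and 123 had both. For the share of the longer end, its expected counts were divided by the sum of longer end and parent, in the 3149 pairs where both ends together had 50 or more counts in 2 of 3 libraries of a strain. Any other aptardi end of the same parent is left out of this sum. The share rose with the length of the extension. Counts are not scaled for transcript length, and a longer transcript gathers more of them, so the share favours longer extensions by construction. The share by length of extension was not computed on TPM. Up to 200 bases (857 pairs) the median share was 6.28 to 16.1% over the libraries, and over 200 and up to 500 bases (453 pairs) it was 58.7 to 84.1%. Up to 1000 bases (460 pairs) it was 76.5 to 100%, up to 2000 bases (626 pairs) 87.3 to 100%, and beyond 2000 bases (753 pairs) 100% in each library. With a reference parent the median was 90.9 to 100% and with an assembled parent 18.0 to 35.6%. Extensions with an opposite-strand exon had library medians of 67.4 to 99.4%, and those without any exon of another locus 63.5 to 98.9%. Among the 2111 pairs with 50 counts in each of the 6 libraries, the longer end held the majority of counts in every library in 1101, the parent in 587, and the majority differed between libraries in 423.

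**Figure D2:**
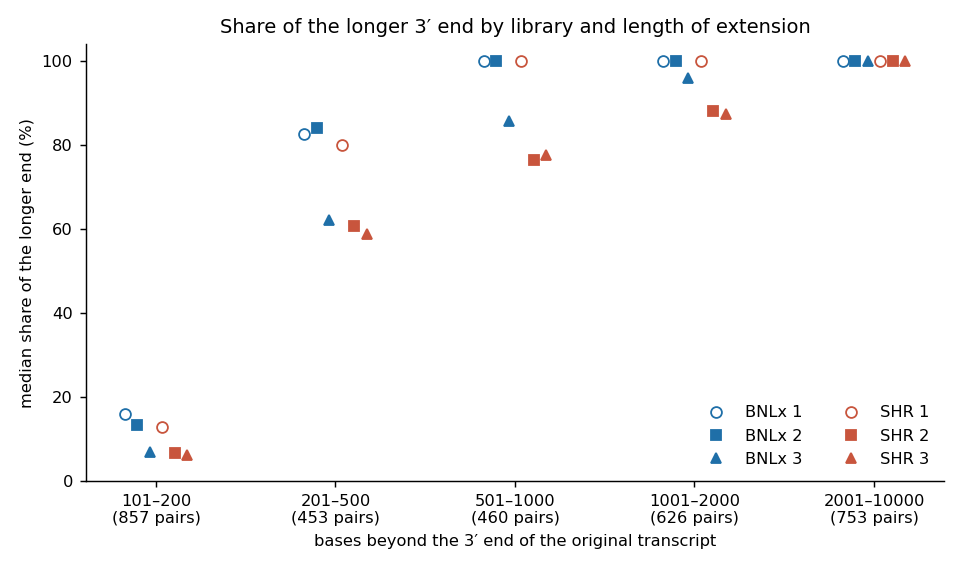
Median share of the longer 3′ end in percent of longer end plus parent, by length of extension, with 1 point per library (blue BNLx, red SHR; open circle, square and triangle are replicates 1, 2 and 3). The medians rise from 6.28 to 16.1% for at most 200 bases to 100% beyond 2000 bases, and between these BNLx replicate 3 and SHR replicates 2 and 3 lie below the other 3 libraries.

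The share also differed between libraries, and not along the strains. In the order of the replicate numbers, its median was 95.4, 99.1 and 73.7% in BNLx, and 91.1, 65.2 and 65.3% in SHR. On TPM, which is scaled for length, it was 92.5, 97.7 and 64.4% in BNLx and 84.5, 55.2 and 54.2% in SHR. BNLx replicate 3 therefore lay nearer to SHR replicates 2 and 3 than to its own strain, and SHR replicate 1 nearer to BNLx replicates 1 and 2. The shorter aptardi ends had the opposite order, with a median share of 51.8, 46.8 and 55.9% in BNLx and 52.2, 59.6 and 59.0% in SHR (6078 pairs). The lane, the RNA quality and the fragment size of the libraries are not given in the labels, and their part in this was not tested. No test of the strains was made on these medians, since 3 against 3 libraries cannot go below an exact two-sided permutation p of 0.1.

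**Figure D3:**
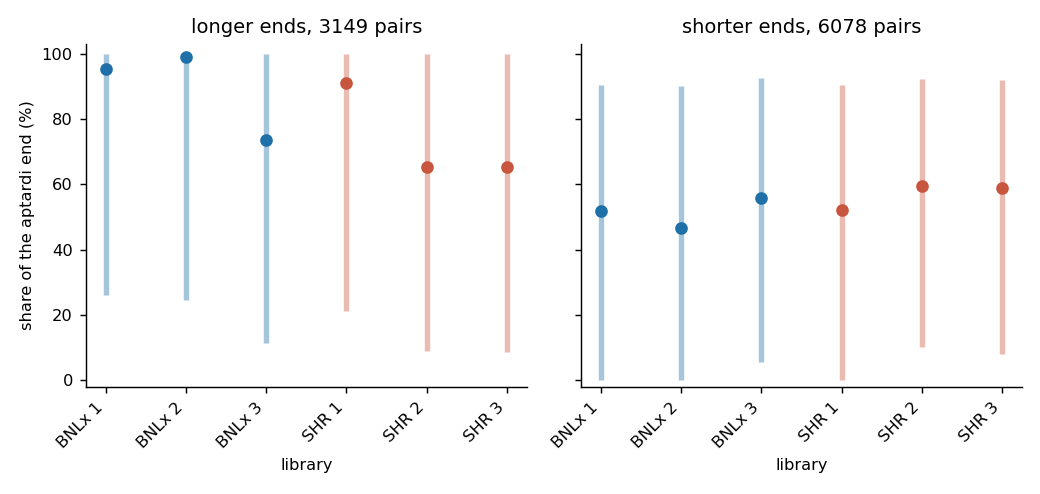
Share of the aptardi 3′ end in percent of aptardi end plus parent in each library, for longer ends (left) and shorter ends (right); points are medians over pairs and bars run from the lower to the upper quartile. For longer ends the medians are high in BNLx replicates 1 and 2 and SHR replicate 1 and low in the other 3 libraries.

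Single genes show this split. Dnm1, the dynamin of synaptic vesicle endocytosis, has an end 539 bases beyond its parent STRG.12338.3, with 283, 399 and 34.6 CPM in BNLx and 105, 70.6 and 98.8 CPM in SHR. Its share was 100, 100 and 15.3% in BNLx and 89.1, 20.1 and 29.9% in SHR, so each strain holds high and low libraries, and its extension overlaps an exon of the opposite strand. Ppp3ca, the catalytic subunit of calcineurin, had a share of 99.7, 100 and 82.0% in BNLx and 91.1, 67.5 and 67.6% in SHR for an end at 1149 bases. For Hsp90ab1, a cytosolic chaperone, whose end lies only 172 bases on, the share was 63.6, 67.3 and 43.5% in BNLx and 65.7, 48.3 and 52.1% in SHR. In each of these 3 genes the shares of the strains overlapped.

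The 10 members with the highest mean CPM carried from a part to all of their gene, and a choice by CPM favours a large part. The highest of these by TPM was the end of AABR07046778.1, 733 bases beyond its parent, with 10400 to 13300 TPM in BNLx and 10600 to 12000 in SHR, and an exon of the opposite strand in its extension. Thy1, a surface protein of neurons, was at 1320 to 1360 TPM in BNLx and 878 to 1090 in SHR, with its parent at 0 in every library. The 3 SHR libraries were below the 3 BNLx libraries for Thy1, with a log2 fold change of -0.49. It passed the isoform threshold in DESeq2 (adjusted p = 8.04e-05) but not in edgeR (adjusted p = 0.235). Pkm, a pyruvate kinase, was at 1120 to 1230 TPM in all 6 libraries. Kif5a, a kinesin motor, and Syt1, the calcium sensor of transmitter release, had their parents at 0 and ranged from 386 to 861 and from 225 to 610 TPM, respectively. The gene total of Syt1 was 873 to 1480 CPM in BNLx and 1040 to 1620 in SHR. Its longer end held 479 to 661 CPM of this in BNLx and 485 to 1190 in SHR. Mef2c, a transcription factor of neurons, was at 173, 207 and 17.5 TPM in BNLx and 56.3, 257 and 228 in SHR, so the spread within a strain was wider than the difference of the strain means.

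The longest extensions among members at a mean of 2 CPM or more were those of Tmem245 (9654 bases), Rora, a nuclear receptor (9337), Kcnh7, a potassium channel (9196), Cdk6, a cell cycle kinase (8938), and Scai (8655). All 5 parents are reference transcripts at 0 counts in every library. Kcnh7 was at 33.8, 34.8 and 1.14 CPM in BNLx and 1.27, 48.3 and 39.7 in SHR, low in both libraries that stood apart. Rora was at 0, 0 and 36.8 CPM in BNLx and 0, 24.6 and 5.95 in SHR. Tmem245, at 85.5 to 123 CPM in BNLx and 70.8 to 150 in SHR, and Scai, at 45.8 to 65.9 and 36.4 to 79.1, were found in every library. None of the 5 differed between strains by edgeR (lowest adjusted p = 0.949).

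The study asked which transcripts differ between the strains once aptardi ends are included. Of 4095 members, 2396 (58.5%) passed the filter, and 27 of these (1.13%) differed at an unadjusted p of 0.001 or less in edgeR's quasi-likelihood test fitted over all isoforms, against 1.00% of all 32348 isoforms. The share is near that background and near the 1.07% of shorter aptardi ends. In SHR, 8 members rose (all isoforms: 0.476%) and 19 fell (0.526%). The median log2 fold change was -0.0848 over the members tested and 0.0163 over all isoforms. At a Benjamini-Hochberg adjusted p of 0.05 or less, 12 members passed, 7 higher and 5 lower, against 0.532% of all isoforms. All 27 lie on chromosomes 2 to 9, where 2141 of the 2396 were tested. Of the 27, 22 extend the parent by more than 200 bases, 6 overlap an exon of the opposite strand and 8 end near another original end. A called end at or near 0 in a strain passed the filter only through the other strain, where it is high. The filter thus favours a difference for such ends, and their fold bounds are no separate support for it. The parent passed the filter for 18 of the 27 and differed for 1, Dcps. The locus total differed for 2 of the 24 loci (adjusted p of 0.05 or less, edgeR; all genes: 1.02%), that of Plcxd3 and one that joins LOC100910708 and Akr1b8.

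The count rests on single libraries. Leaving out BNLx replicate 1 gave 12 of 2255 members (0.532%; all isoforms 0.702%), BNLx replicate 2 gave 13 of 2296 (0.566%; 0.703%) and BNLx replicate 3 gave 41 of 2341 (1.75%; 1.27%). Leaving out SHR replicate 1 gave 34 of 2218 (1.53%; 1.25%), SHR replicate 2 gave 17 of 2264 (0.751%; 0.671%) and SHR replicate 3 gave 20 of 2262 (0.884%; 0.695%). The share of all isoforms moved in the same direction as that of the members in each of these fits. DESeq2 on all 6 libraries called 82 members (all isoforms: 3.60%). In edgeR without both BNLx replicate 3 and SHR replicate 1, the count was 117 of 2128 (all isoforms: 3.88%), 42 of them higher in SHR. Of the 26 called members that still passed the filter, 19 kept their call. Both libraries were picked from these same counts as unlike their strain. Leaving them out favours a smaller spread within strains and more calls, so this fit is no independent support.

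**Figure D4:**
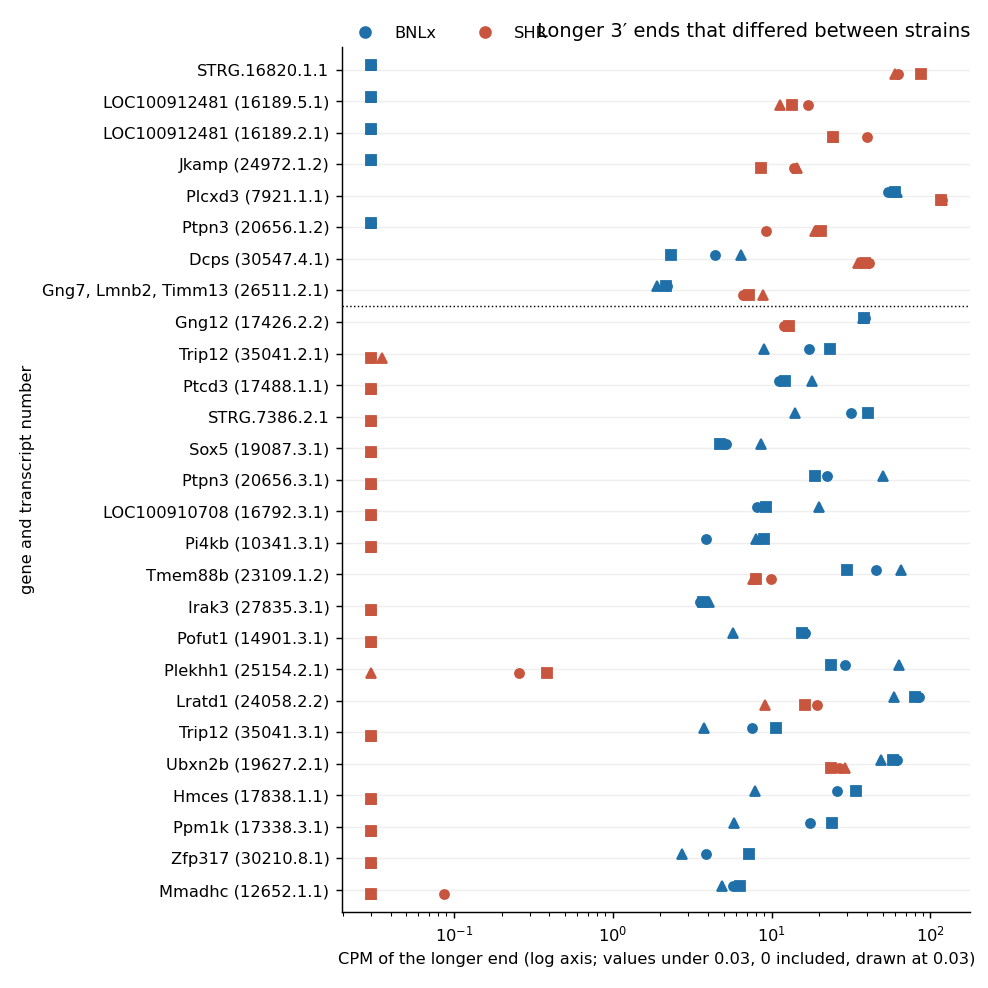
CPM of the 27 longer 3′ ends that differed between strains, on a log axis with values under 0.03, 0 included, drawn at 0.03; blue is BNLx and red SHR, with circle, square and triangle for replicates 1, 2 and 3, and the dotted line parts the 8 higher in SHR (top) from the 19 lower. The strains do not overlap for any of them, which the choice by p favours, and most are at or near 0 in 1 strain and passed the filter through the other alone.

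Among the 8 that rose in SHR, Plcxd3, a phospholipase C-like gene, was found in every library of both strains. Its end, 5651 bases beyond the parent (rn6 chr2:54360781-54366431, plus strand), was at 53.8, 59.8 and 61.2 CPM in BNLx and 118, 117 and 118 in SHR. The log2 fold change was 1.01 (SE 0.12, adjusted p = 0.0395, edgeR). The parent was at 0 in every library and the longer end held the whole gene, which rose by the same amount (log2 1.02, adjusted p = 0.0145, edgeR). All counts of Plcxd3 are at this 1 end, so no share of ends can be compared. The isoform call held without BNLx replicate 3 or SHR replicate 1 and was lost without any 1 of the other 4 libraries.

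Dcps, the scavenger enzyme that removes the cap left after 3′ decay of mRNA, differed at both ends. The longer end (3040 bases, chr8:36318953-36321992, minus strand) was at 4.41, 2.33 and 6.44 CPM in BNLx and 40.8, 38.8 and 35.2 in SHR, a log2 fold change of 3.11 (SE 0.39, adjusted p = 0.0484, edgeR). The parent was at 15.8, 15.3 and 13.8 CPM in BNLx and 5.4, 5.84 and 6.81 in SHR (log2 -1.31, past the isoform threshold in edgeR). The share of the longer end was 21.9, 13.2 and 31.8% in BNLx and 88.3, 86.9 and 83.8% in SHR, with no overlap. The locus, which also holds AC111781.1, Fam118b, Foxred1, St3gal4 and Tirap, had a log2 fold change of 0.18 in total (adjusted p = 0.639, edgeR), so no total of Dcps alone was tested. The call of the longer end was lost without BNLx replicate 1, SHR replicate 1 or SHR replicate 2.

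Jkamp, a membrane protein tied to JNK signalling and protein degradation, has longer ends 402 and 602 bases beyond its parent STRG.24972.1 (chr6:94849785-94850386, plus strand, for the further one). The further end was at 0 in each BNLx library and at 13.8, 8.57 and 14.5 CPM in SHR, at least 62.0-fold higher (adjusted p = 0.0332, edgeR; the bound sets each BNLx library at 3 counts). The nearer end was at 54.2, 47.6 and 53.6 CPM in BNLx and 34.4, 29.0 and 29.4 in SHR (log2 -0.74), past the isoform threshold in DESeq2 (adjusted p = 1.54e-05) but not in edgeR (adjusted p = 0.143), and the parent at 0 in BNLx and 2.19 to 4.11 CPM in SHR. An exon of the opposite strand overlaps both extensions.

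Ptpn3, a tyrosine phosphatase, has a called end in each direction, from different parents. The end of STRG.20656.1.2 (chr5:74248939-74250452, minus strand) was at 0 in BNLx and at 9.24, 20.4 and 18.8 CPM in SHR, at least 81.7-fold higher (adjusted p = 0.0427, edgeR). That of STRG.20656.3.1 (chr5:74251228-74252601) was at 22.2, 18.8 and 50.2 CPM in BNLx and 0 in SHR, at least 259-fold lower (adjusted p = 0.0506, edgeR). The parent STRG.20656.3 was at 0 in every library and STRG.20656.1 at 0 in BNLx. The gene total was at 61.4, 65.0 and 220 CPM in BNLx and 27.5, 73.8 and 72.5 in SHR and did not pass (adjusted p = 0.671, edgeR).

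The other 4 that rose were 2 members of LOC100912481 with 1 shared end, the unnamed STRG.16820.1.1, and STRG.26511.2.1, in a locus that joins Gng7, Lmnb2 and Timm13. In LOC100912481 the end lies 160 bases on (chr4:24640497-24640656, plus strand). STRG.16189.2.1 was at 0 in BNLx and at 39.7, 24.2 and 24.2 CPM in SHR, at least 149-fold higher (adjusted p = 0.0274, edgeR), and the parent at 18.4 to 42.2 and 28.2 to 46.6 CPM. STRG.16820.1.1 was at 0 in BNLx and at 59.5 to 87.0 CPM in SHR, at least 353-fold higher (adjusted p = 0.0146, edgeR), with an opposite-strand exon in its extension. STRG.26511.2.1 was at 1.91 to 2.2 CPM in BNLx and 6.65 to 8.8 in SHR and lost its call when any 1 library was left out.

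Gng12, a gamma subunit of G proteins, had the lowest p of the 19 that fell. Its called end lies 3423 bases beyond the parent (chr4:97760103-97763525, plus strand), and aptardi placed another end 100 bases before it. The called end was at 39.0, 38.0 and 37.6 CPM in BNLx and 11.9, 12.8 and 12.8 in SHR, log2 -1.61 (SE 0.13, adjusted p = 0.0193, edgeR), and it kept its call without any 1 library. The end at 3323 bases was at 11.8, 7.69 and 21.3 CPM in BNLx and 22.5, 19.5 and 12.6 in SHR, where the strains overlapped. The parent was at 1.62 to 4.02 CPM in all 6 libraries and the other longer end, at 3523 bases, had 0. The total of the locus, which also holds AABR07060862.1, was 55.5 to 78.6 CPM in BNLx and 38.9 to 47.7 in SHR (log2 -0.58, adjusted p = 0.251, edgeR).

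Lratd1 fell at its longer end, 181 bases on (chr6:39358937-39359117, minus strand), from 85.1, 79.8 and 59.0 CPM in BNLx to 19.3, 16.3 and 9.12 in SHR (log2 -2.33, SE 0.33, adjusted p = 0.0682, edgeR). The parent stood at 2.78, 0.608 and 0 CPM in BNLx and 52.6, 40.1 and 37.3 in SHR, without overlap and not past the threshold, and the gene total had a log2 fold change of -0.07. Tmem88b was at 45.3, 29.9 and 65.6 CPM in BNLx and 9.95, 8.03 and 7.63 in SHR (log2 -2.46, SE 0.33, adjusted p = 0.0574, edgeR), and Ubxn2b, a cofactor of the p97 ATPase, at 61.9, 58.5 and 49.0 against 26.7, 23.8 and 28.8 CPM (log2 -1.1, SE 0.16, adjusted p = 0.0709, edgeR). The Tmem88b extension overlaps an exon of the opposite strand. The call held in 2 of the 6 fits without 1 library for Lratd1 and for Tmem88b, and in 1 for Ubxn2b.

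At 0 in each SHR library were the called ends of Ptpn3 (above), Ptcd3, Sox5, Irak3, Pofut1, Ppm1k and Zfp317, which passed the filter through BNLx alone. Ptcd3, a protein of the mitochondrial ribosome, was at 11.2, 12.1 and 17.9 CPM in BNLx, which puts SHR at least 117-fold lower (adjusted p = 0.0293, edgeR), and it kept its call without any 1 library. Irak3, an inhibitor of Toll-like receptor signalling, was at 3.52, 3.7 and 4.04 CPM in BNLx, with SHR at least 32.0-fold lower (adjusted p = 0.0598, edgeR), while its parent was at 0, 0.551 and 0 in BNLx and 5.27, 6.2 and 7.81 in SHR. Sox5, a transcription factor, was at 5.2, 4.74 and 8.53 CPM in BNLx (SHR at least 52.5-fold lower, adjusted p = 0.0484, edgeR). Ppm1k, a mitochondrial phosphatase of branched-chain amino acid breakdown, was at 17.5, 24.1 and 5.82 CPM in BNLx, with the parent below 11 CPM throughout. Totals of these 6 other loci, of which those of Ptcd3 and Zfp317 hold another named gene, had adjusted p values of 0.317 to 0.918 (edgeR). Of the 6 fits without 1 library, Irak3, Sox5 and Pofut1 kept their call in 3, Ppm1k in 1 (without BNLx replicate 3) and Zfp317 in 0.

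In Trip12, a ubiquitin ligase, a single end 889 bases on (chr9:92307232-92308120, minus strand) gave 2 called members. STRG.35041.2.1 was at 17.3, 23.3 and 8.92 CPM in BNLx and at 0.014, 0 and 0.0354 in SHR (adjusted p = 0.0193, edgeR), which is under 2 counts in SHR in all. A further end of that parent, 1589 bases on, was at 74.8 to 83.4 CPM in BNLx and 79.2 to 95.6 in SHR. The parent was at 5.71, 1.16 and 45.2 CPM in BNLx and 6.56, 59.2 and 40.4 in SHR, along the split of libraries and not the strains. Hmces, which protects abasic sites in DNA, Pi4kb, a phosphatidylinositol 4-kinase, Plekhh1, Mmadhc, a vitamin B12 processing protein, LOC100910708 and the unnamed STRG.7386.2.1 were likewise near 0 in SHR, with at most 0.388 CPM there and 3.88 to 63.8 CPM in BNLx. Their adjusted p values were 0.0484 to 0.0946 (edgeR). The extensions of Pi4kb, Plekhh1 and STRG.7386.2.1 overlap an exon of the opposite strand. Of the 6 fits without 1 library, Hmces, Plekhh1 and Mmadhc kept their call in 1, and Pi4kb, LOC100910708 and STRG.7386.2.1 in 4.

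The ratio of longer end to parent was tested within libraries, so that a change of the whole gene cancels, in 1 edgeR model over all 9227 aptardi and parent pairs. No member passed an adjusted p of 0.05 (0.00% of all pairs, lowest adjusted p 0.362). Of the 3149 members tested, 689 had the parent at 0 in every library and 153 had the longer end at 0 in every library. Such pairs hold no change of ratio that the test could call. At an unadjusted p under 0.05 there were 97 of 3149 members (3.08%), 69 of them with a lower share in SHR, against 3.37% of all pairs. Limma on the log2 ratio called 22 members with 0.5 CPM added to each end (all pairs: 0.672%), 23 with 0.1 CPM added (0.596%) and 24 on TPM (0.780%), with 4, 5 and 6 of them higher in SHR. Of these, 6, 6 and 5 have both ends at 0 in each library of a strain, where the ratio is set by the added value alone and is no measure of a share. Among the 22, LOC100910708 and Plekhh1 also had both ends below the added 0.5 CPM in each SHR library, so their ratios in SHR rest largely on it. Counted without a test, the share was lower in every SHR library than in every BNLx library for 127 of the 2111 pairs with 50 counts in each library (6.02%; all pairs 4.78%) and higher for 48 (2.27%; all pairs 5.72%). All pairs are here 6396, of which 4285 have a shorter aptardi end. For those a lower aptardi share means more of the farther end, so the directions of this background are mixed.

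Some of the members that limma called had counts in both strains; they were chosen after their values were seen. Khsrp, a KH-domain protein of splicing and mRNA decay, has an end 1391 bases on (chr9:10022331-10023721, plus strand) at 55.3, 59.2 and 48.8 CPM in BNLx and 50.5, 41.2 and 43.3 in SHR. An exon of the opposite strand overlaps it. The parent was at 0 in BNLx and 11.5, 24.0 and 20.5 CPM in SHR, so the share went from 100% to 81.4, 63.2 and 67.9% (adjusted p = 0.0134, limma). Zfp955a, a zinc finger gene, had a share of 100% in BNLx and 85.0, 76.8 and 83.6% in SHR (adjusted p = 0.0203, limma). Nudt12, a hydrolase of NAD(H), went the other way, with 17.7, 38.5 and 13.7% in BNLx and 100% in each SHR library (adjusted p = 0.0268, limma). Dcps, Irak3, Lratd1 and the nearer Jkamp end were also called by limma (adjusted p = 0.0339, 0.0128, 0.018 and 0.0203). Among the 22, Ptcd3, Sox5, Pofut1 and the STRG.20656.3.1 end of Ptpn3 had both ends at 0 in SHR, and Dut and Tp53bp1 had both at 0 in BNLx and a longer end at or near 0 in SHR, so no share can be compared for these 6. For Zdhhc22, a palmitoyl transferase with an end at 1815 bases, the share was 91.8, 100 and 90.1% in BNLx and 79.5, 62.0 and 61.0% in SHR, and for Unc79, a subunit of the NALCN channel complex, 100% in BNLx and 100, 71.5 and 49.1% in SHR. Neither share was called by edgeR or limma. The longer end of Zdhhc22 itself was at 35.9, 62.7 and 79.8 CPM in BNLx and 13.4, 26.6 and 18.8 in SHR, without overlap (log2 -1.6). It passed the isoform threshold in DESeq2 (adjusted p = 0.00797) but not in edgeR (adjusted p = 0.251).

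**Figure D5:**
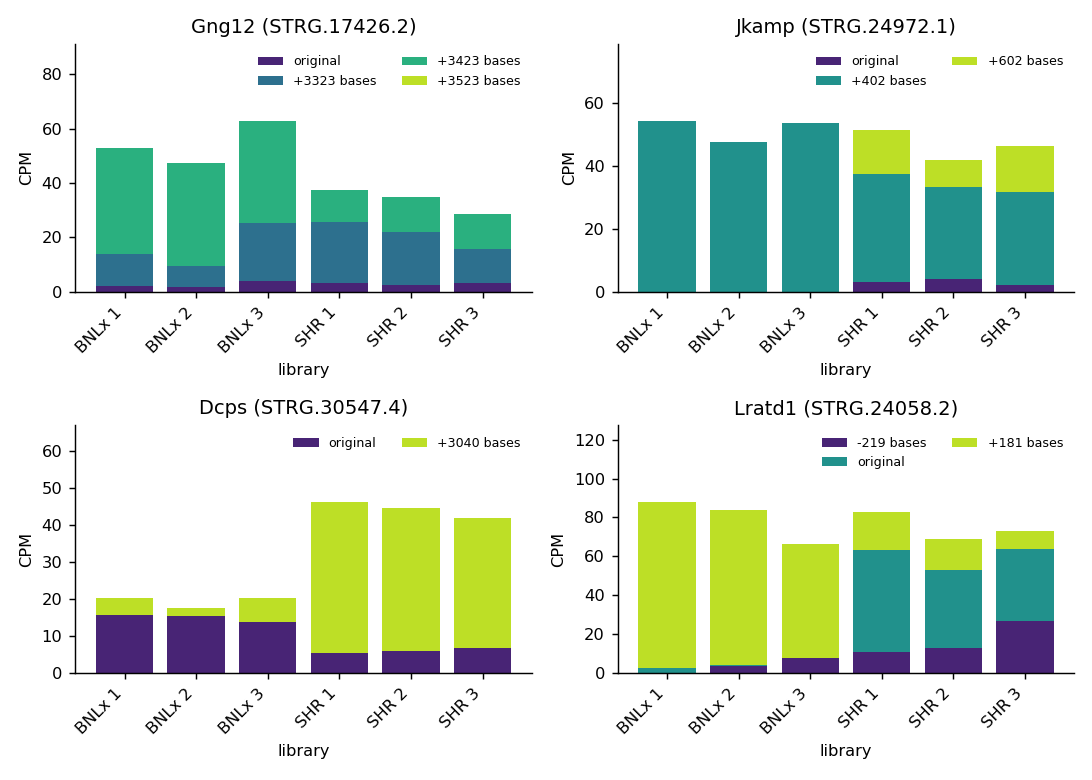
CPM in each library of all 3′ ends of 1 original transcript of Gng12, Jkamp, Dcps and Lratd1, stacked and coloured by their distance from the original end in bases. In Dcps and Lratd1 the majority end differs between strains, in Jkamp the end at 602 bases is seen in SHR and not in BNLx, and in Gng12 the end at 3423 bases falls.

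Those factors that cut and polyadenylate mRNA and were found by name did not pass the gene test. Names come from reference transcripts, which chromosomes 1 and 10 to 19 lack, so a factor without a name was not tested, whatever its level. Nudt21 (CFIm25), Pcf11 and Fip1l1 were among those not found. Of 22 listed, 10 were found and tested (among them Cpsf1, Cpsf2, Cpsf3 and Cpsf6, the Cstf subunits, Papola and Pabpc1), 0 passed an adjusted p of 0.05 and 0 had an unadjusted p under 0.05 (edgeR; DESeq2 also 0 at an adjusted p of 0.05). Their median log2 fold change was 0.036, and the lowest adjusted p was 0.557, for Cstf3 (log2 -0.28). RNA-binding regulators of 3′ ends and stability (21 of 40 tested) and the microRNA pathway (7 of 12 tested) also had 0 genes that passed or had an unadjusted p under 0.05 (edgeR).

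Several of these factors have longer ends themselves. Papola, the nuclear polyA polymerase, has one 482 bases on with a share of 100, 100 and 85.8% in BNLx and 100, 77.1 and 97.3% in SHR. Pabpc1, the cytoplasmic polyA-binding protein, had 58.6, 60.2 and 33.9% in BNLx and 45.1, 41.4 and 41.5% in SHR at 420 bases. Cpsf2, a subunit of the cleavage complex, was at 8.45, 0.00435 and 37.3 CPM in BNLx and 1.13, 0.0162 and 0.0207 in SHR, so a single library held most of it. Ptbp2, a splicing repressor of neurons, had a share of 100, 100 and 95.7% in BNLx and 100, 46.1 and 61.0% in SHR for an end at 1290 bases. These shares are against the parent alone and leave out its other longer ends. In SHR replicate 1, Ptbp2 had 34.7 CPM at 990 bases and 17.4 at 1290. In SHR replicate 2, Papola had 29.2 CPM at 282 bases and 35.7 at 482.

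Of the other lists, ion channels had 26 members over 11 genes with a median extension of 3568 bases, and library median shares of 100%. Kcna1 was at 201 to 290 CPM in BNLx and 174 to 235 in SHR for an end at 5177 bases, and Scn8a at 303 to 404 and 194 to 447 CPM at 4354 bases. Presynaptic genes had 23 members over 12 genes (median extension 1661 bases), receptors and postsynaptic scaffold 23 over 4 genes (1877), calcium and G protein signalling 27 over 12 (1749), cytoskeleton and axonal transport 12 over 6 (596.5), growth factors and receptors 7 over 3 (6469) and ubiquitin and proteasome genes 29 over 7 (889). The isoform test called 2 members of these lists in Trip12 and 1 in Gng12, and none in the others, 3 of 89 list members tested (all isoforms: 1.00%). Among the examples, Nlgn1, a synaptic adhesion protein, was at 34.8, 36.7 and 15.7 CPM in BNLx and 13.5, 0.578 and 1.53 in SHR for an end at 1777 bases, without overlap but not called, and Acvr2a, an activin receptor, at 28.3 to 50.8 and 59.5 to 76.0 CPM at 1063 bases, likewise apart, not called and with an opposite-strand exon.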

How the data were processed

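Whole brain polyA RNA of 6 male rats, 3 BNLx and 3 SHR, was analysed from deposited files. The authors trimmed reads with cutadapt, aligned them with HISAT2 to strain genomes made from rn6 and merged both strains before assembly in StringTie 1.3.5, with Ensembl as guide. Aptardi 1.0.0 extended that assembly, with rn6 as its genomic sequence according to the paper, and RSEM quantified each library. Whether RSEM used rn6 or the genome of each strain was not established, and its part in the differences between strains was not tested. The deposited values used are RSEM expected counts per isoform and gene, without normalization, and the authors' TPM, which RSEM scales for length within a library. A deposited table of the whole series holds the same expected counts for the 32348 isoforms past the filter, within 0.01. The deposited FPKM were not used. The deposited annotation gives 1-based rn6 positions. RSEM splits reads that several ends of a transcript share, so a count of an end rests on the stretch in which the ends differ and is an estimate.

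Expected counts were rounded and fitted in R 4.3.3 with edgeR 4.0.16 (TMM scaling and two-sided quasi-likelihood tests of strain, with no covariate). An isoform needed 50 or more counts in 2 of 3 libraries of a strain, and the study's threshold, an unadjusted p of 0.001, was used for isoforms. Longer end against parent was tested in 1 model of 12 columns with terms for library, end and end by strain. Pairs and genes were called at a Benjamini-Hochberg adjusted p of 0.05. CPM uses the TMM-scaled library size, also for gene totals. Alternatives used DESeq2 1.42.0, limma 3.58.1, other filters, scalings and denominators, the replicate number as a block, and left-out libraries. A fold against a strain at 0 is a lower bound at 3 counts per library and covers counting error only. Only the edgeR tests of isoforms, pairs and genes were tried on simulated counts. Those had a single fixed dispersion and no library that stood apart, so they were simpler than these data.

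Each library is labelled as its own animal. The replicate numbers name animals of different strains, and the labels state no pairing by them. Members and lists were chosen with earlier results of these data known. The named genes are those called in the isoform test, up to 10 per direction by p; the 10 with the highest mean CPM; the 5 longest extensions at a mean of 2 CPM or more; those at 0 in 1 strain and at 50 or more counts in each library of the other; Zdhhc22, Unc79, Gng12 and Jkamp; and up to 4 examples per list. Beyond the 10 per direction, the remaining called members, and those called by limma alone, were added after their values were seen. A rule for members called in the pair test named none. Some genes that these rules and lists name are not reported here. Sequence around the ends, such as polyA signals, was not searched, since no rn6 genome was used here.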

Additional observations from a re-analysis of the deposited data

How the results depend on the processing

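Of the 27 members that differed between strains, all kept their call with DESeq2 size factors in edgeR, with no filter on low counts, with filterByExpr and with DESeq2, which called 82 members in all (all isoforms: 3.60%), and 26 kept it with limma on log2(TPM + 1) or log2(TPM + 0.1). The count was 12 at an adjusted p of 0.05, 117 without both libraries that stood apart, which were picked from these data, and 12 to 41 without each library in turn. With the replicate number as a block it was 3. The same-numbered libraries had correlations of deviations of 0.128, -0.0251 and 0.0734, against -0.125 to 0.0997 for differently numbered ones. So few values cannot decide whether same-numbered libraries share a batch, and the labels give none. The count of the pair test was 0 with the block, without each library in turn (0 to 0) and under the other edgeR settings, and 22, 23 and 24 with limma; the cause was not tested. With all ends of the original transcript as denominator, the median share of the longer end was 62.1, 61.8 and 47.0% in BNLx and 57.8, 43.3 and 44.3% in SHR, lower by construction, since the denominator holds more ends. With 50 counts in every library, a choice made after seeing the data, it was 92.7, 96.5 and 74.6% and 88.7, 68.4 and 67.8%. The count of 3′ end processing factors was 0 in each setting. Pairs of ends and isoforms with fewer counts than the filter asks for were not tested, and the size of a difference in share that these libraries could show was not measured on them.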
